A study of Mus musculus with 18 samples.

Results

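A set of 41 genes stood at least 1 log2 away from untreated control in mouse preadipocytes given TGF-b1, and stood away from it on the same side when the receptor inhibitor SB431542 was given with the cytokine. These genes are described here as the TGF-b1 changes that SB431542 left standing. They were chosen by measured values. Deposited transcript counts were summed per gene symbol, scaled to the library total (counts per 1000000, CPM), averaged over the 3 libraries of a group and put on a log2 scale after adding 0.5. A gene was kept with a group mean of at least 5 CPM, a difference between TGF-b1 and control mock of at least 1 log2, and a difference between TGF-b1 with SB431542 and control mock of at least 0.8 log2 with the same sign. Of 17001 gene symbols, 11748 reached 5 CPM in a group and 41 met all of these conditions, 11 of them higher than in mock and 30 lower. Differences between these 3 groups therefore define the set, and they are given below as values with no test. In all 41 genes the libraries of either treated group did not overlap those of CD mock, in contrasts that the rule itself used, where 75.0% of the 11748 genes showed no overlap between TGF-b1 and CD mock (24.6% above and 50.4% below) and 69.4% none between both agents and CD mock (45.3% above and 24.1% below).

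The cells were primary preadipocytes, the precursors of fat cells, from the white fat depot labelled eWAT of wild-type mice. From mice on control diet (CD) there were cells given TGF-b1, cells given TGF-b1 together with SB431542, and mock cells. From mice on high-fat diet (HFD) there was another mock group. Further preadipocytes, Itga5-High and Itga5-Low, were sorted with an antibody to the surface integrin CD49e, the product of Itga5, and then taken through adipogenic differentiation. Each of the 6 groups had 3 libraries of poly(A) RNA, with 11154426 to 17288580 counts per library. The labels give no dose, duration or age, and no group received SB431542 alone, so a response to TGF-b1 that passed the inhibitor and a response to SB431542 itself cannot be told apart. Nothing in them states that replicates came from different animals or dishes. The p-values and standard errors below therefore cover the spread of these libraries alone, which may be technical.

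TGF-b1 binds a pair of receptor kinases on the cell surface. The activated type I receptor phosphorylates receptor Smads, which enter the nucleus and change transcription, and the same receptors also feed MAP kinase and other cytoplasmic pathways. SB431542 is a small molecule that blocks the kinase of type I receptors for TGF-b, activin and Nodal. In preadipocytes TGF-b1 is known as an inhibitor of adipogenesis and as a driver of matrix production and of a contractile, myofibroblast form.

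The set was a small part of the genes that lay 1 log2 or more from mock with TGF-b1. Of the 231 genes at least 1 log2 higher with TGF-b1 than in CD mock, 11 (4.76%) met the rule, 112 (48.5%) lay within 0.8 log2 of mock when SB431542 was present, and 108 (46.8%) lay at least 0.8 log2 below mock. Of the 1167 genes at least 1 log2 lower with TGF-b1, 30 (2.57%) met the rule, 627 (53.7%) lay within 0.8 log2 of mock and 510 (43.7%) lay at least 0.8 log2 above it. The median difference between TGF-b1 with SB431542 and mock was -0.71 log2 over the 231 and 0.69 log2 over the 1167, so the median gene lay on the other side of its mock level. Itga5, a known target of TGF-b, lay there too, at 1.64 log2 with TGF-b1 and -1.16 log2 with both agents. Pparg, the central factor of adipogenesis, was at -1.08 log2 with TGF-b1 and 1.88 log2 with both agents. The median of all 11748 genes was not at 0 on this scale, at -0.14 log2 for TGF-b1 and 0.09 log2 for TGF-b1 with SB431542, against 0.01 and -0.01 log2 when libraries were scaled by TMM. Scaled by TMM, 37 of the 41 genes still met the rule and Fbn2, Krt8, Lgals7 and Ptprq did not.

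**Figure D1:**
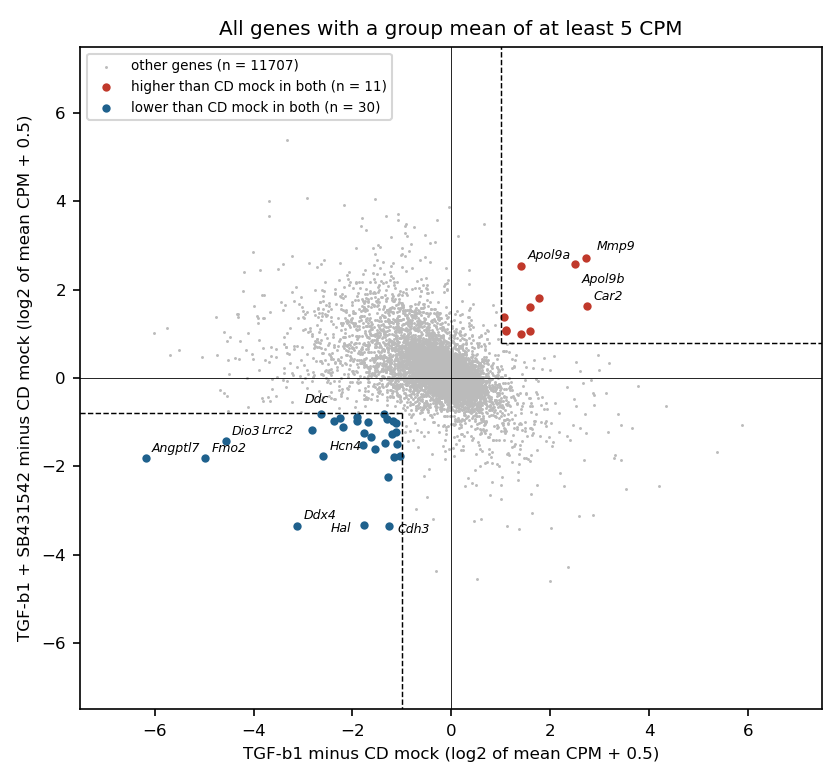
Difference from CD mock in log2 of mean CPM plus 0.5, for TGF-b1 on the horizontal axis and TGF-b1 with SB431542 on the vertical axis, for the 11748 genes with a group mean of at least 5 CPM. Dashed lines mark the rule. The 11 higher genes (red) and the 30 lower genes (blue) lie apart from the main cloud, which slopes from upper left to lower right.

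Membership of some genes rested on small margins. Ddc at -0.81 and Col8a2 at -0.81 log2 were just inside the limit of 0.8 for the inhibitor, while Ass1 at 0.79 and Il1rl1 at -0.79 log2 were just outside it. Fbn2 at -1.04 and Gpat3 at 1.07 log2 were just inside the limit of 1 for TGF-b1, while Glipr1 at 0.95 and Ivl at -0.93 log2 were just outside.

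Levels with and without the inhibitor were not alike in all 41 genes. In 18 of them all libraries with both agents lay nearer to mock than all TGF-b1 libraries, in 8 all lay farther from mock, and in 15 the ranges overlapped. The 26 of 41 without overlap stand beside 84.5% of all 11748 genes for the same pair of groups, and since the rule used these groups nothing is read from the comparison. As a share of the TGF-b1 difference, the difference left with SB431542 ran from 29.5% for Angptl7 to 268.9% for Cdh3, with a median of 85.1%. The higher genes had a median of 99.1% and the lower genes of 76.7%. These classes and shares hold for CPM of total counts. On that scale the median of all genes was -0.14 log2 with TGF-b1 and 0.09 log2 with both agents, against 0.01 and -0.01 log2 with TMM. They were not recomputed with TMM, so genes with close treated levels could change class.

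**Figure D2:**
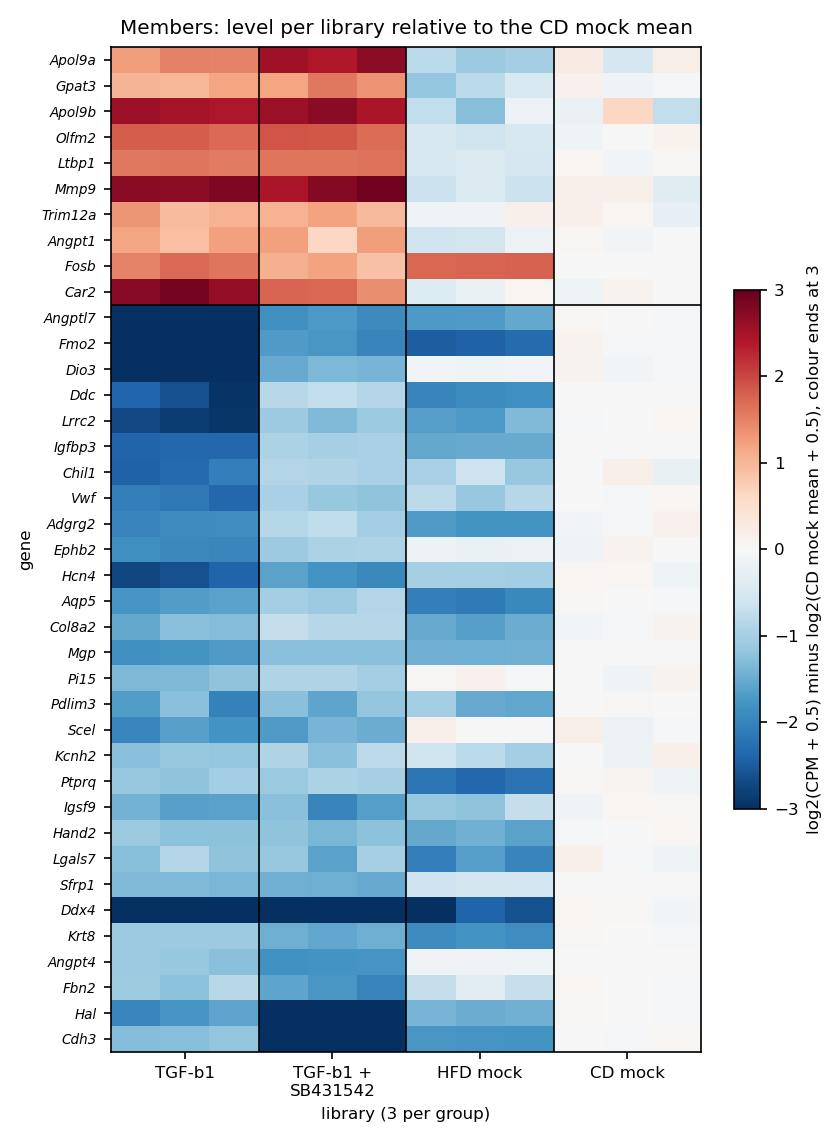
Level of 39 of the 41 genes in each library of undifferentiated cells, as log2 of CPM plus 0.5 minus log2 of the CD mock mean plus 0.5 (red higher, blue lower, colour ending at 3). Genes are ordered within each direction by how far the libraries with SB431542 lie from those without it. Angptl7, Fmo2 and Dio3 are much lower with TGF-b1 than with both agents, whereas Cdh3 and Hal are lowest with both.

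Among the higher genes, secreted and matrix proteins included Ltbp1, the latent TGF-b binding protein that anchors inactive TGF-b in the matrix. Ltbp1 (chromosome 17, 75005529 to 75392512, mm10) was at 107.5, 109.0 and 105.3 CPM with TGF-b1 and at 108.5, 108.4 and 109.8 CPM with TGF-b1 and SB431542, against 36.8, 33.1 and 35.9 CPM in CD mock. In CPM of total counts the treated groups overlapped each other and lay 3.04-fold and 3.09-fold above mock. Its transcripts start at 2 sites that were not used alike, although the method that divided reads between transcripts is not known here. The far upstream start, which gives the long form, held 20 ± 3.53 CPM with TGF-b1, 35.5 ± 1.52 CPM with both agents and 8.48 ± 3.28 CPM in CD mock (SD, n = 3 each). The inner start, shared by 6 transcripts of the short form, held 87.3 ± 1.80 CPM with TGF-b1, 73.4 ± 2.12 CPM with both agents and 26.8 ± 3.71 CPM in CD mock. The long form thus made up 18.6% of the gene on average with TGF-b1, 32.6% with both agents and 24.1% in mock, and the TGF-b1 and inhibitor libraries did not overlap at either start. In CD mock its share varied from 15.9% to 33.8% between libraries, which reached into the range of both treated groups. The sequences around both starts are shown because a similar CPM of total counts came from a different mix of them. How close the totals of the treated groups lie with TMM factors was not examined. They are RefSeq promoters of GRCm38.p6, which has the coordinates of mm10, 250 bases before and 50 bases from the start, read 5′ to 3′ on the gene's strand, and capitals mark letters of the motifs listed near the end of the text, here the Smad motif CAGACA on the reverse strand.
Ltbp1 long form, plus strand, chr17:75005279-75005578: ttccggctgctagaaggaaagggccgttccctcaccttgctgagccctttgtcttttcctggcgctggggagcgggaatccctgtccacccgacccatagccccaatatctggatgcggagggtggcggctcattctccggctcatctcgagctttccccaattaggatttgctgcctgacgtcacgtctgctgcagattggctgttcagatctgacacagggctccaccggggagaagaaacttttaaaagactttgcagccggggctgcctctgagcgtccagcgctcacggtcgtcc
Ltbp1 short form, plus strand, chr17:75178531-75178830: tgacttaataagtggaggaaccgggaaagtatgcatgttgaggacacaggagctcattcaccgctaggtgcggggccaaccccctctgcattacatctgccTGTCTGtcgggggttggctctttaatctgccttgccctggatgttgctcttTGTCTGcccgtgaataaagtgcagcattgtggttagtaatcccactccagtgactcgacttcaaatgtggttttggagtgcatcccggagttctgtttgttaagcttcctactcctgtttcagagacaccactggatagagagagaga

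Olfm2, a secreted protein with an olfactomedin domain, had nearly the same CPM of total counts in both treated groups and a different main start in each. Olfm2 (chromosome 9, 20667690 to 20746296) was at 19, 19 and 17.4 CPM with TGF-b1 and at 19.9, 19.6 and 17.3 CPM with both agents, against 4.57, 5.13 and 5.43 CPM in CD mock. The mean was 3.66-fold above mock with TGF-b1 and 3.75-fold above it with both agents, and the treated groups overlapped. The innermost start (NM_001357635) held 12.1, 16.8 and 15.9 CPM with TGF-b1 and 0.582, 0.00193 and 0.00645 CPM with both agents, against 1.89, 2.61 and 0.965 CPM in CD mock. The start farthest upstream (NM_001357639) held 3.04, 0.962 and 0.656 CPM with TGF-b1 and 16.9, 18.8 and 14.5 CPM with both agents, against 2.38, 2.14 and 4.42 CPM in CD mock. The innermost start therefore carried 81.2% of the gene with TGF-b1 and 0.99% with both agents, and the upstream start 8.29% and 88.3%. In CD mock the shares were 36.7% and 58.4%, on 184 counts of the gene in 3 libraries, and they varied from 17.8% to 50.9% and from 41.8% to 81.5% between libraries. A start between them (NM_173777) carried 10.5% with TGF-b1, 10.7% with both agents and 4.89% in mock. Thus the gene met the rule as a sum, while neither of the 2 main starts was above mock in both treated groups: the innermost start was at 2.73 and -1.74 log2 from mock and the upstream start at -0.76 and 2.31 log2. The sequences at the 3 starts are given for this reason, with capitals for the Sp motif GGGCGG and, at the middle start, the Smad motif on the reverse strand.
Olfm2 innermost start, minus strand, chr9:20726954-20727253: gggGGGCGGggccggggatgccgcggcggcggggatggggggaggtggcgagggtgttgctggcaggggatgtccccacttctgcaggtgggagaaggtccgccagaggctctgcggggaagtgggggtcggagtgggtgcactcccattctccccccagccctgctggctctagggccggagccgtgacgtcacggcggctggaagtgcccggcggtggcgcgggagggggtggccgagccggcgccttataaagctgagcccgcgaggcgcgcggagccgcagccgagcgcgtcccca
Olfm2 middle start, minus strand, chr9:20728180-20728479: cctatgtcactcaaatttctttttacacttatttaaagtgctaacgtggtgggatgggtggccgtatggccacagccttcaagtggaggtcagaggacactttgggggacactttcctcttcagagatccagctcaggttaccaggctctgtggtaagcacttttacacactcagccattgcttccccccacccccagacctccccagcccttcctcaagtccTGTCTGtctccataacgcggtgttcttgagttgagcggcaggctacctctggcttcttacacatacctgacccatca
Olfm2 upstream start, minus strand, chr9:20746247-20746546: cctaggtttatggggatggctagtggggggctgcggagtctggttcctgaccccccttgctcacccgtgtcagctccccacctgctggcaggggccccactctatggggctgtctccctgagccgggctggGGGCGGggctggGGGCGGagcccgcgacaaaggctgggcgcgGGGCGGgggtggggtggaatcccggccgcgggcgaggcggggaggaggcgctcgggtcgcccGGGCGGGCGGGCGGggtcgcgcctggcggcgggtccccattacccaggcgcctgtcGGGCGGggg

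**Figure D3:**
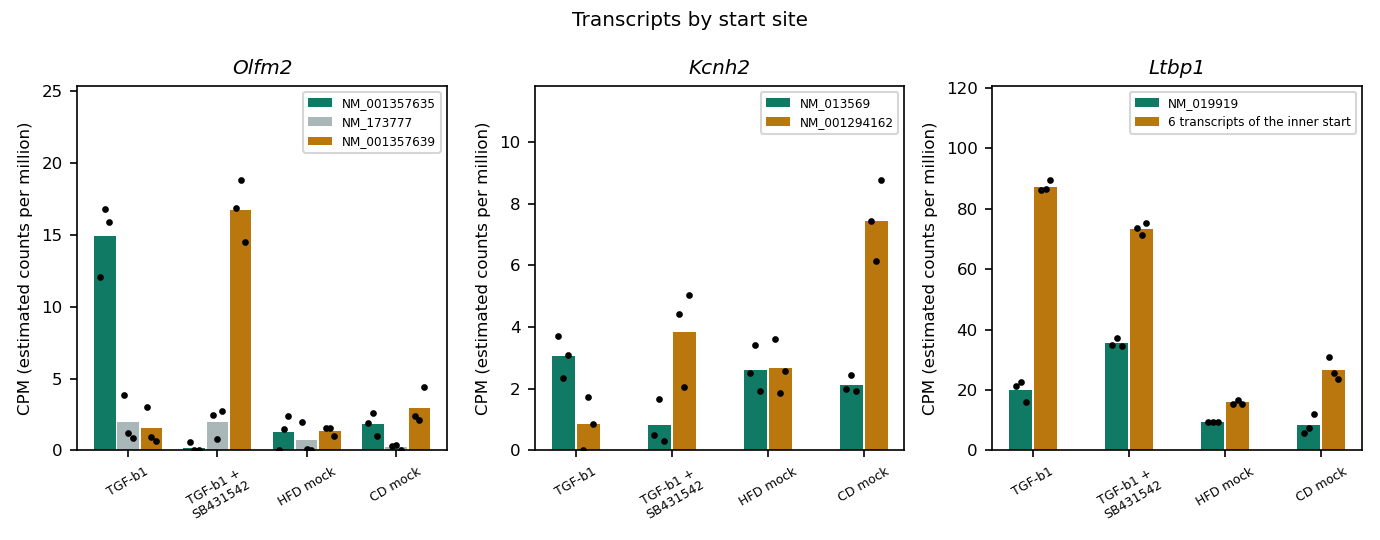
Level in CPM by transcription start for Olfm2, Kcnh2 and Ltbp1, in the 4 groups of undifferentiated cells. Bars are means and points are the 3 libraries. For Olfm2 the innermost start holds most with TGF-b1 and the upstream start with TGF-b1 and SB431542, and for Kcnh2 and Ltbp1 the mix also differs between these groups.

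Mmp9 and Angpt1 were the other secreted proteins that were higher. Mmp9 (chromosome 2, 164948219 to 164955850), the gelatinase that cleaves denatured collagen, was at 6.69, 6.54 and 7.19 CPM with TGF-b1 and at 5.48, 6.88 and 7.70 CPM with both agents, against 0.717, 0.722 and 0.350 CPM in CD mock. The treated groups overlapped each other at 11.4-fold and 11.2-fold above mock, where the 3 libraries held 22 counts. Angpt1, the activating ligand of the endothelial receptor Tie2, was at 6.05 ± 0.793 CPM with TGF-b1 and 5.86 ± 1.43 CPM with both agents, against 2.54 ± 0.153 CPM in CD mock (SD, n = 3 each).

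Enzymes on the higher side were Car2 and Gpat3. Car2, a cytosolic carbonic anhydrase, was at 5.67, 6.29 and 5.33 CPM with TGF-b1 and at 2.62, 2.59 and 1.95 CPM with both agents, against 0.359, 0.506 and 0.438 CPM in CD mock. All inhibitor libraries lay between the other groups, and 59.3% of the log2 difference was left. Gpat3, which catalyses the first step of triglyceride synthesis, was at 5.99 ± 0.448 CPM with TGF-b1 and 7.57 ± 1.12 CPM with both agents, against 2.60 ± 0.248 CPM in CD mock, with overlap between the treated groups.

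Apol9a and Apol9b encode apolipoprotein L proteins of rodents known to be induced by interferon. Apol9a (chromosome 15, 77403789 to 77411080) was at 8.23, 9.93 and 9.75 CPM with TGF-b1 and at 20.8, 18.9 and 23.3 CPM with both agents, against 3.83, 2.08 and 3.63 CPM in CD mock. It alone of the 11 higher genes had all inhibitor libraries farther from mock than all TGF-b1 libraries. Apol9b (chromosome 15, 77729072 to 77736382) was at 15.3, 14.6 and 13.9 CPM with TGF-b1 and at 15.5, 16.9 and 14.1 CPM with both agents, against 1.82, 3.56 and 1.10 CPM in CD mock. The transcripts of this pair of genes were identical at 1506 of 1529 aligned bases (98.5%), so the split of reads between the copies is uncertain. Their promoters, shown to let the copies be compared, share the AP-1 motif TGAGTCA on the reverse strand and a pair of TEAD motifs GGAATG, all in capitals.
Apol9a, minus strand, chr15:77411031-77411330: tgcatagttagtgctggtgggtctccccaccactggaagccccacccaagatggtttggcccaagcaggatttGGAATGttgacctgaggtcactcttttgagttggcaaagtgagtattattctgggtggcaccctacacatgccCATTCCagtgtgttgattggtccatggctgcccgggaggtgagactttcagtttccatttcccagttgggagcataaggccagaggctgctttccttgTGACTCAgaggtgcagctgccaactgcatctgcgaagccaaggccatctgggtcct
Apol9b, plus strand, chr15:77728822-77729121: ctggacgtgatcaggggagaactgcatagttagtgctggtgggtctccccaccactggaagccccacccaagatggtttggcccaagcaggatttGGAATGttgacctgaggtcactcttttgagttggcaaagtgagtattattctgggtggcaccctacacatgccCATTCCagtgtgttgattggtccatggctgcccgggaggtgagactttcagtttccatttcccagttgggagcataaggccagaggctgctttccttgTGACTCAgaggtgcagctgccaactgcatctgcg
A list of 19 interferon response genes did not follow this pattern with TGF-b1. Over the 18 of them that reached 5 CPM, the median was -0.97 log2 from mock with TGF-b1 and 2.77 log2 with both agents, beside -0.14 and 0.09 log2 over all 11748 genes. Trim12a, of the TRIM family of ubiquitin ligases, was at 14.3 ± 1.99 CPM with TGF-b1 and 14 ± 1.28 CPM with both agents, against 6.34 ± 0.928 CPM in CD mock (SD, n = 3 each). Its transcript matched that of Trim12c at 96.5% of aligned bases, so its counts are uncertain in the same way.

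Fosb was among the remaining higher genes. Fosb, a subunit of the AP-1 transcription factor, was at 8.89, 10.3 and 9.61 CPM with TGF-b1 and at 6.51, 7.21 and 5.67 CPM with both agents, against 2.87, 2.82 and 2.80 CPM in CD mock. Its inhibitor libraries lay between the other groups, with 66.5% of the log2 difference left.

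Igfbp3, Sfrp1, Mgp and Angptl7 encode secreted proteins among the lower genes. Igfbp3 (chromosome 11, 7206091 to 7213923), the main carrier of insulin-like growth factors, was at 127.7, 130.0 and 130.1 CPM with TGF-b1 and at 345.6, 339.3 and 340.5 CPM with both agents, against 680.5, 671.5 and 664.9 CPM in CD mock. Sfrp1 (chromosome 8, 23411502 to 23449632), a soluble antagonist of Wnt ligands, was at 245.9, 247.1 and 238.3 CPM with TGF-b1 and at 225.4, 223.2 and 217.6 CPM with both agents, against 614.5, 615.7 and 622.7 CPM in CD mock. The inhibitor libraries of these genes lay differently: Igfbp3 lay between TGF-b1 and mock, with 41.1% of the log2 difference left, while Sfrp1 was slightly lower with both agents than with TGF-b1 in all libraries. Mgp, matrix Gla protein, an inhibitor of calcification, was at 126.3 ± 6.95 CPM with TGF-b1 and 181.3 ± 0.278 CPM with both agents, against 433.1 ± 2.28 CPM in CD mock. Angptl7 (chromosome 4, 148495280 to 148500462), an angiopoietin-like secreted protein, was at 0.394, 0.490 and 0.682 CPM with TGF-b1 and at 20.3, 22.1 and 19.1 CPM with both agents, against 75.4, 73.7 and 72.1 CPM in CD mock. It had the largest TGF-b1 difference of the 41 genes, at -6.18 log2, and the smallest share left, at 29.5%. Most of the Angptl7 difference was therefore gone with SB431542, which still left the gene 3.6-fold below mock.

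Angpt4, a further ligand of Tie2, went the other way. Angpt4 was at 43.8, 42.3 and 39.2 CPM with TGF-b1 and at 26.5, 26.7 and 27.3 CPM with both agents, against 93.4, 93.3 and 95.3 CPM in CD mock, so that the inhibitor libraries were the lowest. Fbn2, a fibrillin of elastic microfibrils, was likewise lowest with both agents, at 6.76 ± 1.04 CPM with TGF-b1 and 3.88 ± 0.619 CPM with both, against 14.4 ± 0.534 CPM in CD mock. Col8a2, Pi15 and Chil1 lay between TGF-b1 and mock. Col8a2, a short-chain collagen, was at 27.4 ± 2.88 CPM with TGF-b1 and 40.1 ± 2.23 CPM with both agents, against 70.8 ± 4.43 CPM in CD mock. Pi15, a secreted peptidase inhibitor, was at 16.2 ± 0.899 CPM with TGF-b1 and 20.9 ± 1.13 CPM with both agents, against 40.6 ± 3.12 CPM in CD mock. Chil1, a chitinase-like protein without enzyme activity, was at 1.65 ± 0.296 CPM with TGF-b1 and 4.95 ± 0.180 CPM with both agents, against 9.77 ± 1.41 CPM in CD mock. Lgals7, a galectin of stratified epithelia, had overlapping treated groups at 3.53 ± 0.629 CPM with TGF-b1 and 3.24 ± 0.803 CPM with both agents, against 8.21 ± 0.839 CPM in CD mock (SD, n = 3 each).

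Enzymes were also among the lower genes, with the lowest TGF-b1 levels relative to mock in Fmo2 and Dio3. Fmo2 (chromosome 1, 162874318 to 162898758), a flavin-containing monooxygenase, was at 1.5, 1.96 and 1.55 CPM with TGF-b1 and at 20.6, 19.7 and 16.7 CPM with both agents, against 72.7, 64.6 and 66.1 CPM in CD mock. Dio3 (chromosome 12, 110279230 to 110281097), the deiodinase that inactivates thyroid hormone, was at 1.57, 1.80 and 1.43 CPM with TGF-b1 and at 16.9, 18.8 and 18.2 CPM with both agents, against 53.0, 46.4 and 47.7 CPM in CD mock. In both genes the 3 groups did not overlap, TGF-b1 was 40.6-fold and 30.7-fold below mock, and the libraries with both agents were 3.57-fold and 2.73-fold below it. Ddc, the decarboxylase that makes dopamine and serotonin, had 30.9% of its log2 difference left, at 2.56 ± 0.582 CPM with TGF-b1 and 10.2 ± 0.561 CPM with both agents, against 18.4 ± 0.160 CPM in CD mock. Hal, histidine ammonia-lyase, was at 0.944, 1.14 and 1.36 CPM with TGF-b1, against 5.29, 5.06 and 4.99 CPM in CD mock, and the 3 libraries with both agents together held 2 counts. It was therefore lowest with both agents, at a depth that allows no fold.

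Membrane proteins covered channels, receptors and adhesion molecules. Hcn4, the pacemaker channel of heart, was at 1.89, 2.04 and 2.48 CPM with TGF-b1 and at 4.68, 4.05 and 3.64 CPM with both agents, against 16, 16 and 14 CPM in CD mock. Aqp5, a water channel of secretory epithelia, was at 24.8 ± 1.40 CPM with TGF-b1 and 40.3 ± 3.0 CPM with both agents, against 80.7 ± 2.58 CPM in CD mock. Both channels lay between TGF-b1 and mock when SB431542 was present. Kcnh2, the potassium channel known as ERG, had overlapping treated totals of 3.92 ± 0.199 CPM with TGF-b1 and 4.66 ± 0.836 CPM with both agents, against 9.56 ± 1.05 CPM in CD mock. As in Olfm2 the starts differed: the transcript of the inner start (NM_001294162) was at 0.864 ± 0.869 CPM with TGF-b1 and 3.85 ± 1.58 CPM with both agents, against 7.45 ± 1.30 CPM in CD mock. Its upstream start (NM_013569) was at 3.05 ± 0.677 CPM with TGF-b1 and 0.813 ± 0.742 CPM with both agents, against 2.11 ± 0.280 CPM in CD mock, on 161 counts of the gene with TGF-b1 and 171 with both agents.

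Cdh3 lay farther from mock with both agents than with TGF-b1. Cdh3 (chromosome 8, 106510852 to 106556911), P-cadherin, was at 52.8, 53.8 and 57.0 CPM with TGF-b1 and at 12, 12.1 and 12.7 CPM with both agents, against 128.8, 127.3 and 135.0 CPM in CD mock. With TGF-b1 it was 2.39-fold below mock and with both agents 10.6-fold below it, the largest share left of the 41 genes. Ephb2, an ephrin receptor kinase, lay between at 14 ± 0.642 CPM with TGF-b1 and 27.2 ± 1.68 CPM with both agents, against 54.3 ± 3.62 CPM in CD mock. Adgrg2, an adhesion G protein-coupled receptor of the male reproductive ducts, also lay between, at 8.52 ± 0.437 CPM with TGF-b1 and 18 ± 1.67 CPM with both agents, against 33.5 ± 2.56 CPM in CD mock. The treated groups overlapped for Ptprq, a receptor phosphatase needed in inner ear hair cells, and for Igsf9, a neuronal adhesion molecule. Ptprq was at 11.2 ± 0.787 CPM with TGF-b1 and 12 ± 0.773 CPM with both agents, against 25 ± 1.91 CPM in CD mock. Igsf9 was at 2.69 ± 0.262 CPM with TGF-b1 and 2.58 ± 0.782 CPM with both agents, against 8.81 ± 0.573 CPM in CD mock (SD, n = 3 each).

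Among intracellular proteins, Ddx4, the germ cell RNA helicase also called Vasa, was nearly absent from both treated groups. Ddx4 (chromosome 13, 112598333 to 112652310) was at 0.394, 0.409 and 0.496 CPM with TGF-b1 and at 0.397, 0.486 and 0 CPM with both agents, against 7.89, 7.73 and 7.09 CPM in CD mock. The treated groups held 18 and 11 counts in 3 libraries each, against 276 counts in CD mock, and overlapped each other. Hand2, a basic helix-loop-helix transcription factor of heart and limb development, was at 12.8, 11.9 and 11.9 CPM with TGF-b1 and at 12.1, 10.8 and 11.8 CPM with both agents, against 27.6, 28.1 and 29.8 CPM in CD mock. Scel, a precursor of the cornified envelope, was at 5.76 ± 0.752 CPM with TGF-b1 and 7.03 ± 0.843 CPM with both agents, against 21.1 ± 2.64 CPM in CD mock. Pdlim3, a PDZ and LIM domain protein of muscle Z-discs, was at 1.73 ± 0.600 CPM with TGF-b1 and 2.23 ± 0.400 CPM with both agents, against 6.36 ± 0.122 CPM in CD mock. For Hand2, Scel and Pdlim3, as for Ddx4, the libraries with both agents overlapped the TGF-b1 libraries. Lrrc2 lay between, at 1.58 ± 0.164 CPM with TGF-b1 and 6.02 ± 0.584 CPM with both agents, against 14.2 ± 0.536 CPM in CD mock (SD, n = 3 each).

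Krt8 and Vwf are also markers of other cell types that the preparation could hold, mesothelium and endothelium. Krt8, a keratin of simple epithelia and mesothelium, was at 67.0, 67.2 and 67.0 CPM with TGF-b1 and at 51.6, 48.3 and 51.8 CPM with both agents, against 147.6, 145.3 and 138.8 CPM in CD mock. The sum of 12 mesothelial markers, Krt8 among them, was 677.6 to 694.5 CPM with TGF-b1 and 2625 to 2634 CPM with both agents, against 2698 to 2729 CPM in CD mock. With SB431542 the marker sum stood close to mock while Krt8 was 2.85-fold below it. Markers within the sum went both ways. Msln was at 67.3 CPM with both agents, against 123.1 CPM in CD mock. Upk3b was at 877.1 CPM and 661.9 CPM in these groups. Vwf, the endothelial clotting protein, was at 5.51, 5.23 and 4.46 CPM with TGF-b1 and at 12.4, 11.0 and 10.4 CPM with both agents, against 24.5, 24 and 25.9 CPM in CD mock. The sum of 10 endothelial markers was 176.8 to 180.6 CPM with TGF-b1 and 1023 to 1049 CPM with both agents, against 444.4 to 463.0 CPM in CD mock, so that Vwf was below mock in the libraries where the other endothelial markers were above it in sum. Of those others only Kdr was also below mock, at 61.8 CPM with both agents against 67.3 CPM in CD mock. The sum of 14 macrophage markers was 589.7 to 604.8 CPM with TGF-b1 and 1263 to 1289 CPM with both agents, against 584.9 to 599.5 CPM in CD mock. The sum of 8 pericyte and smooth muscle markers was 517.3 to 520.4 CPM with TGF-b1 and 888.2 to 912.0 CPM with both agents, against 479.7 to 491.8 CPM in CD mock. That of 4 markers of mature adipocytes was 0 to 0.682 CPM with TGF-b1 and 156.2 to 162.5 CPM with both agents, against 13.7 to 16.1 CPM in CD mock. All 14 markers of preadipocytes and fibroblast progenitors reached 5 CPM in a group, and their sum was 4897 to 4923 CPM with TGF-b1 and 10238 to 10315 CPM with both agents, against 9648 to 9734 CPM in CD mock. With TGF-b1 10 of these 14 were at least 1 log2 below mock, as were 1167 of all 11748 genes. No lymphocyte marker was measured in undifferentiated cells. In bulk RNA, fewer cells of a type and less RNA per cell cannot be told apart. The part of these marker changes in the values of the 41 genes was not tested.

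**Figure D4:**
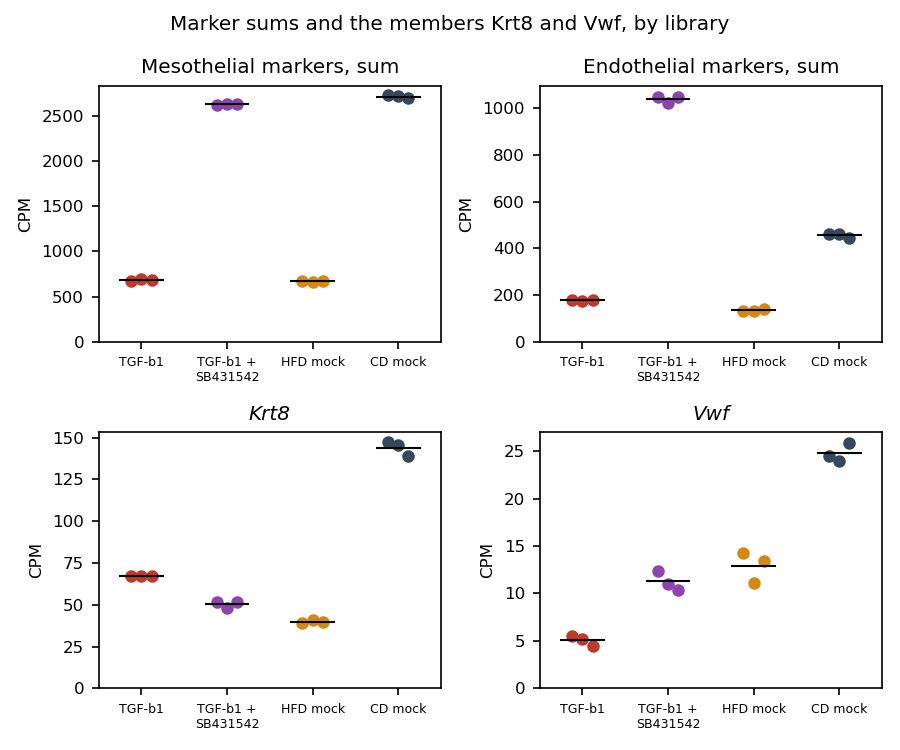
Upper row, summed CPM of mesothelial and endothelial markers per library, and lower row, CPM of Krt8 and Vwf, with points for libraries and lines for group means. The mesothelial sum is near the mock level with TGF-b1 and SB431542 while Krt8 is not. The endothelial sum is above the mock level there while Vwf is below.

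Of 24 TGF-b and Smad target genes, 7 were at least 1 log2 higher with TGF-b1, as were 231 of all 11748 genes. None of the 24 belonged to the set, which holds 41 of all 11748 genes. The list medians were 0.68 log2 with TGF-b1 and -0.54 log2 with both agents. In the comparisons outside the rule, 20 of these 24 rose, 3 fell and 1 was not called in HFD mock against CD mock, and 14 rose, 7 fell and 3 were not called in Itga5-High against Itga5-Low cells (edgeR, adjusted p under 0.05). Over all genes tested, 27.1% rose and 26.6% fell in HFD mock against CD mock, and 27.0% rose and 26.5% fell in Itga5-High against Itga5-Low cells. None of 34 measured genes of TGF-b receptors and of the non-Smad arm belonged to the set either. With 41 members among 11748 genes, lists of this size would be likely to hold none, so nothing is read from either absence. The 8 members found in a list were spread over the lists: Fosb was in that of MAP kinase feedback and AP-1 (26 genes), Fbn2 in extracellular matrix (58), Mmp9 in proteases (31), Sfrp1 in Wnt and BMP (33 measured), and Igfbp3 and Angpt1 in growth factors (41), beside Krt8 and Vwf as markers. The matrix members Ltbp1, Col8a2 and Mgp were in no list, so this spread depends on which genes were listed. Cholesterol synthesis genes, of which none was a member, had medians of -0.58 log2 with TGF-b1 and -0.48 log2 with both agents over 20 genes, beside -0.14 and 0.09 log2 over all genes. The medians of these lists are descriptions of libraries that entered the rule.

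The high-fat diet libraries did not enter the rule, although the CD mock libraries they are compared with did. The rule chose the lower genes as high in CD mock, and 9 of the 30 reached 5 CPM in CD mock alone among its 3 groups, so the counts here are a description and nothing is read from their distance to the share over all genes. Of the 30 genes that were lower with TGF-b1, 25 (83.3%) were lower in HFD mock than in CD mock at an adjusted p under 0.05 in edgeR's quasi-likelihood test and the other 5 were not called, where 26.6% of all 14078 genes tested were lower. The 25 comprise all 9 genes that reached 5 CPM in CD mock alone and 16 of the other 21. Their median change was -1.44 log2, against -0.01 log2 over all genes tested. In CPM, 28 of the 30 had all HFD mock libraries below all CD mock libraries, which was so for 42.4% of the 11748 genes, while 21.4% of the 11748 lay wholly above and 63.8% lay apart in either direction. The 11 genes that were higher with TGF-b1 split otherwise: 6 (54.5%) fell with the diet, 2 (18.2%) rose, where 27.1% of all genes rose, and 3 were not called, with a median of -0.44 log2. Because both comparisons use the same CD mock libraries, their directions are not independent. With total counts in place of TMM factors 27 of the 30 genes fell, and the share of called genes that rose over all genes was 33.7% in place of 50.5%.

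Among the genes that fell with the diet, Ddx4 changed by -3.31 ± 0.260 log2 (SE), at 0.343, 1.02 and 0.815 CPM in HFD mock, against 7.89, 7.73 and 7.09 CPM in CD mock. Fmo2 changed by -2.36 ± 0.067 log2, at 11.8, 12.3 and 13.2 CPM in HFD mock, against 72.7, 64.6 and 66.1 CPM in CD mock. These 2 genes and Ptprq (-2.27 ± 0.10 log2), Lgals7 (-2.07 ± 0.190 log2) and Aqp5 (-1.97 ± 0.055 log2) had the largest falls of the set. Ddx4 and Lgals7 are among the 9 genes that reached 5 CPM in CD mock alone. Nothing is read from this ranking, since the rule chose the lower genes as high in CD mock. Igfbp3 fell by 1.43 log2 (SE 0.020), to 232.5, 235.9 and 236.1 CPM in HFD mock, against 680.5, 671.5 and 664.9 CPM in CD mock. Krt8 changed by -1.78 ± 0.037 log2, and with it all 11 tested mesothelial markers fell, to a sum of 664.7 to 677.6 CPM in HFD mock, against 2698 to 2729 CPM in CD mock. Vwf changed by -0.85 ± 0.084 log2 and all 10 endothelial markers fell, to a sum of 130.0 to 138.7 CPM in HFD mock, against 444.4 to 463.0 CPM in CD mock. The part of these cell types in the falls of the other lower genes was not tested.

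The 5 lower genes that were not called under the diet were Dio3, Angpt4, Ephb2, Pi15 and Scel. Dio3 was at 46.1, 44.7 and 45.9 CPM in HFD mock, against 53.0, 46.4 and 47.7 CPM in CD mock, with a change of -0.02 ± 0.050 log2 (SE). Angpt4 was at 87.7, 86.8 and 86.6 CPM in HFD mock, against 93.4, 93.3 and 95.3 CPM in CD mock, with a change of -0.03 ± 0.033 log2. The libraries of these genes did not overlap in CPM of total counts although the TMM-scaled changes were near 0, and with total counts Angpt4 was called at -0.11 log2, as was Ephb2 at -0.18 log2. Scel and Pi15 overlapped between the diets, with changes of 0.15 ± 0.081 and 0.12 ± 0.056 log2.

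Fosb rose with the diet. Fosb was at 10.5, 10.7 and 10.8 CPM in HFD mock, against 2.87, 2.82 and 2.80 CPM in CD mock, a change of 2.0 ± 0.140 log2 (SE). All 14 macrophage markers rose as well, to a sum of 2596 to 2625 CPM in HFD mock, against 584.9 to 599.5 CPM in CD mock, and their part in the changes of the 41 genes was not tested. Ltbp1 fell by 0.40 log2 (SE 0.055), to 25, 26.1 and 24.7 CPM in HFD mock, against 36.8, 33.1 and 35.9 CPM in CD mock. Olfm2 fell by 0.50 log2 (SE 0.160) and Gpat3 by 0.89 log2 (SE 0.260). Apol9a changed by -1.08 ± 0.250 log2, beside an interferon response list of which 12 of 19 genes fell and 7 were not called, where 26.6% of all genes tested fell. The calls of Mmp9 (-1.23 ± 0.540 log2) and Apol9b (-0.80 ± 0.320 log2) under the diet were each lost on leaving out a library: for Mmp9 without replicate 1 or 3 of HFD mock or replicate 1 or 2 of CD mock, for Apol9b without replicate 1 or 2 of HFD mock or replicate 2 of CD mock, which left -0.18 log2.

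**Figure D5:**
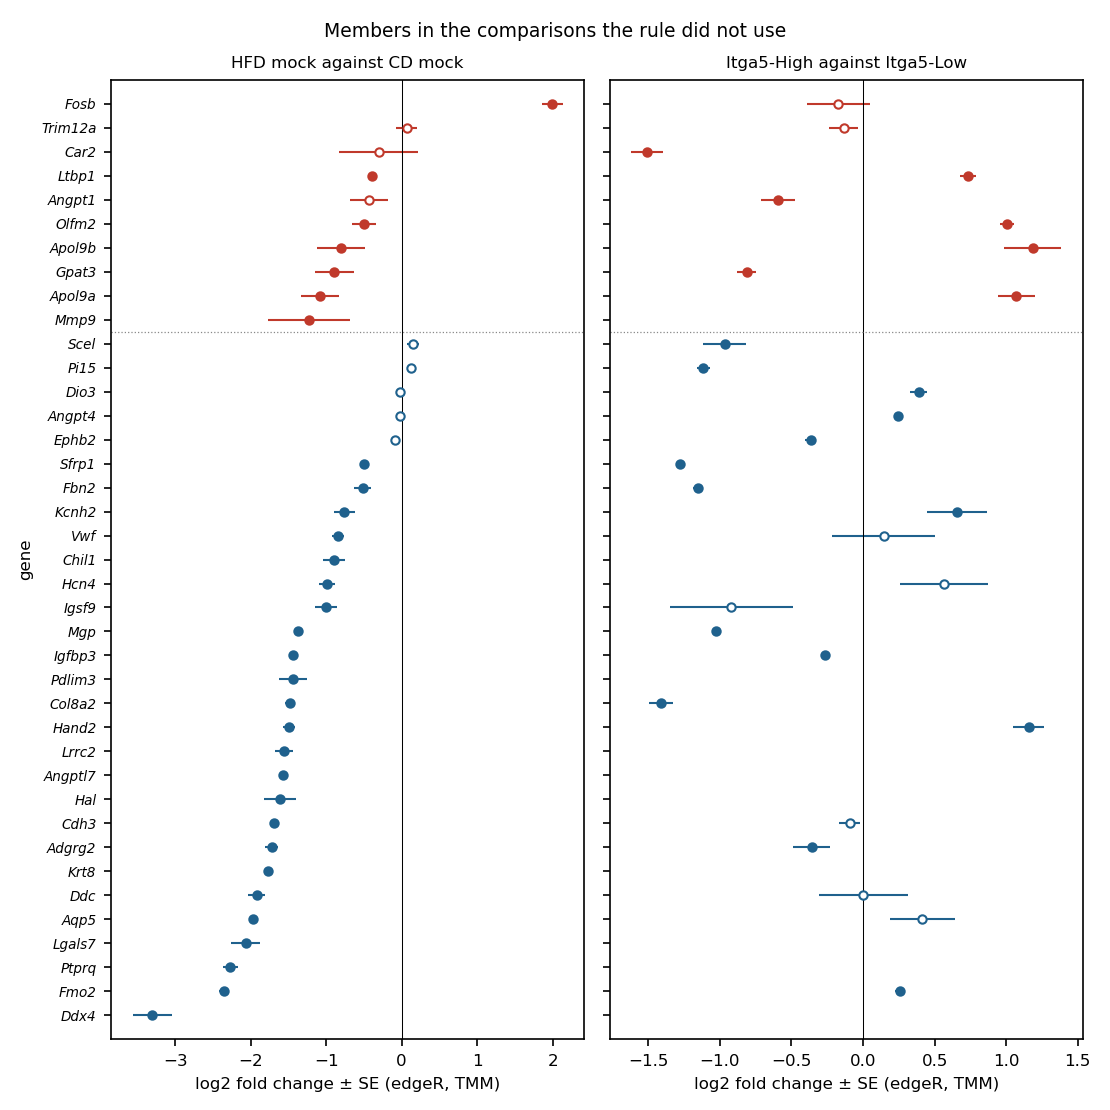
Log2 fold change with its standard error for 39 of the 41 genes, HFD mock against CD mock on the left and Itga5-High against Itga5-Low on the right, for genes higher (red) and lower (blue) with TGF-b1, with filled points for adjusted p under 0.05 in edgeR. On the left 24 of the 29 blue genes shown are filled and negative, whereas on the right filled points lie on both sides, and genes without a point there were not tested.

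The differentiated cells give a comparison that shares no library with the rule. Of the 41 genes, 31 passed the filter on low counts there, and Krt8, Lrrc2, Chil1 and Pdlim3 were not analysed there. Of the 21 tested genes that were lower with TGF-b1, 10 (47.6%) were lower in Itga5-High than in Itga5-Low and 5 (23.8%) were higher, with 6 not called, where 26.5% of all 13468 genes tested were lower and 27.0% higher. Of the 10 tested genes that were higher with TGF-b1, 4 rose, 3 fell and 3 were not called. The medians were -0.27 log2 for the lower genes and -0.16 log2 for the higher genes, against 0.00 log2 over all genes tested, and 22 of 31 genes called stand beside 53.5% in either direction.

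Sfrp1 changed by -1.28 ± 0.0054 log2 (SE), at 1277, 1259 and 1283 CPM in Itga5-High cells, against 3180, 3198 and 3163 CPM in Itga5-Low cells. This SE is smaller than sampling of its 52251 and 157430 counts alone would give, so it does not measure spread between animals. Fbn2 changed by -1.16 ± 0.034 log2, at 57.5, 54.5 and 55.3 CPM in Itga5-High cells, against 126.8, 127.7 and 130.0 CPM in Itga5-Low cells. Col8a2 (-1.41 ± 0.084 log2), Pi15 (-1.12 ± 0.043 log2) and Mgp (-1.03 ± 0.026 log2) were matrix or secreted proteins that fell as well. Hand2 changed by 1.16 ± 0.110 log2 in the other direction, at 14.5, 13.1 and 14 CPM in Itga5-High cells, against 5.46, 7.17 and 6.58 CPM in Itga5-Low cells. Dio3 was higher by 0.39 ± 0.060 log2. On the higher side, Olfm2 was at 48.6, 48.1 and 47.0 CPM in Itga5-High cells, against 25.4, 24.2 and 24.2 CPM in Itga5-Low cells, a change of 1.0 ± 0.050 log2. Ltbp1 was at 37.1, 34.6 and 37.3 CPM in Itga5-High cells, against 21.4, 22.7 and 23.5 CPM in Itga5-Low cells, a change of 0.73 ± 0.057 log2, and Apol9a changed by 1.07 ± 0.130 log2. Car2 fell by 1.51 log2 (SE 0.110), to 5.74, 4.65 and 5.87 CPM in Itga5-High cells, against 15.6, 16.4 and 16 CPM in Itga5-Low cells, and Gpat3 changed by -0.81 ± 0.064 log2. Libraries of the 2 sorts did not overlap in 26 of the 31 tested genes, 10 above and 16 below, where 58.5% of all 13468 genes tested showed no overlap (24.8% above and 33.8% below). The calls of Adgrg2 (-0.36 ± 0.130 log2) and Kcnh2 (0.66 ± 0.210 log2) were lost without replicate 3 of Itga5-High or replicate 1 of Itga5-Low for Adgrg2 and without replicate 2 of Itga5-Low for Kcnh2.

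RefSeq promoters were found for 29 of the 41 genes, 7 higher and 22 lower, and 7 motifs were searched in them on both strands. The Smad motif CAGACA was found in 2 of 7 higher genes (Ltbp1 and Olfm2) and 4 of 22 lower genes (Angptl7, Fmo2, Hcn4 and Lgals7), where 23.6% of all 27025 genes with a promoter held it, and 18.6% of the 9367 of them that reached 5 CPM as the 41 genes did. The AP-1 motif TGAGTCA was found in 2 of 7 (Apol9a and Apol9b) and 2 of 22 (Lrrc2 and Scel), against 5.95% of all and 4.52% at 5 CPM. The TEAD motif GGAATG was in 2 of 7 (again Apol9a and Apol9b) and 1 of 22 (Pdlim3), against 16.6% of all and 14.3% at 5 CPM. Apol9a and Apol9b are near-identical copies that share these sites, so for both motifs their matches are not independent and no excess is read from them. The Smad palindrome GTCTAGAC, held by 0.248% of all promoters and 0.299% at 5 CPM, was in none of the 29. The C/EBP motif TTGCNNAA was in 1 of 7 and 3 of 22 (12.2% of all, 9.78% at 5 CPM) and the E-box CACGTG in 0 of 7 and 3 of 22 (8.09% of all, 12.1% at 5 CPM). The Sp motif GGGCGG was in 3 of 7 and 12 of 22, where 38.2% of all promoters and 70.6% of those at 5 CPM held it. No motif of the 7 contains the letters of another. These matches describe letters in a short window and say nothing of binding.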

How the data were processed

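The authors sequenced poly(A) RNA in 18 libraries of mouse preadipocytes. Per the submitters' processing notes fastp, STAR, featureCounts and build mm10 were used; versions, strandedness and how transcripts shared reads are not stated there. The authors deposited estimated counts (expected counts) per RefSeq transcript, 32709 transcripts of undifferentiated and 29641 of differentiated cells, not scaled to library size. The tables were used separately.

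Transcript values were summed per gene symbol with Python 3.11.15 and pandas 2.3.3. Levels are CPM of the library total. Gene sums were rounded to whole counts and fitted in R 4.3.3 with edgeR 4.0.16 (quasi-likelihood test, TMM factors, filterByExpr, 1 coefficient per group), with 12 libraries of undifferentiated cells (14078 genes) or 6 of differentiated cells (13468 genes). Benjamini-Hochberg adjustment ran over all genes tested, and a call needed an adjusted p under 0.05 at any fold. SE is the unshrunken log2 change of the fit divided by the root of its F statistic. The printed change is the shrunken value that edgeR reports, so they can differ in genes of few counts. On simulated counts, 92.5% of genes changed by 0.5 log2 and 100% of those changed by 1 log2 were recovered in each fit. Sampling noise limits genes of few counts.

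The genes of the set and the lists (17 gene lists and 8 marker lists) were chosen with earlier results of these data known. Individual genes are named as members, as members of the lists, by distance from the limits of the rule, or by the size of their change in the other comparisons. Alternatives were DESeq2 1.42.0, other scalings, filters and pseudocounts, a replicate block and leaving out each library. The deposited transcript end was read as 1 past the last base. Same-numbered replicates were checked for pairing and treated as unpaired. Figures were drawn with matplotlib 3.10.9. Results of some genes are not reported here.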

Additional observations from a re-analysis of the deposited data

How the results depend on the processing

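The rule keeps 42 genes when libraries are scaled by TMM and 44 with DESeq2 size factors, with 37 of the 41 among them in both cases. A pseudocount of 1 kept 37 genes and one of 0.1 kept 48, a minimum of 1 CPM kept 58 and no minimum 60, of which 46 were lower than mock, and a limit of 1 in place of 0.8 log2 for the inhibitor kept 31. Leaving out each library in turn kept 40 to 44 genes. In the 5 pairs of groups compared, correlations of same-numbered replicates were between -0.0224 and 0.0344. In none of the 5 did all 3 replicates correlate best with their own number. Because the spread of libraries may be technical, this check cannot show whether same-numbered libraries shared an animal or dish. A replicate block, in which the smallest of the 3 same-numbered differences had to pass, kept 27 genes, 7 of them higher than mock. As a term in the fits, the block left 33 of the 41 genes called for the diet and 22 for the sorted cells, as without it, with 7533 in place of 7566 and 7063 in place of 7199 calls over all genes.

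Of the 30 lower genes, the number that rose with the diet at an adjusted p under 0.05 was 0 in edgeR and in DESeq2, and 1 (Pi15) at an unadjusted p under 0.05 in edgeR. It ranged from 0 to 1 on leaving out a library: Pi15 was called at 0.16 log2 without replicate 3 of HFD mock and 0.18 log2 without replicate 3 of CD mock, and Scel at 0.25 log2 without replicate 1 of CD mock. Ephb2 was called lower at -0.14 log2 without that library. DESeq2 did not call Mmp9 (-1.25 log2) or Apol9b (-0.78 log2) for the diet, nor Adgrg2 (-0.36 log2) for the sorted cells, and Mmp9 was not called without a filter on low counts. Igsf9 was called at -1.24 log2 without replicate 2 of Itga5-High. No call of a gene of the set changed sign under any alternative run. An alternative added after the data were seen, with the dispersion kept at 1e-04 or above, left 25 lower genes called lower for the diet. Transcript shares rest on an unstated division of reads, and counts of near-identical copies cannot be separated.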
